A study of Rattus norvegicus with 10 samples.

Results

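G protein-coupled receptor genes were examined in a table of regions whose DNA methylation the authors had called as differing between rat offspring of high-fat-fed and of chow-fed fathers. A region belonged to the set when it lay on a numbered chromosome and the table named for it a gene whose symbol follows the naming of a receptor family, such as Adra, Drd, Grm, Celsr or Gpr with a number; a few receptor symbols were left out of that rule and are not analysed here. In all, 66 of 8957 regions, at 44 of 5565 named genes, were members. The choice used names only and no methylation value, but every region of the table had been selected on the paternal diet contrast in these same animals. No test on them is therefore independent evidence of a difference.

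Methylation was measured by reduced representation bisulfite sequencing, which reads CpG-rich restriction fragments, in the hypothalamic arcuate nucleus of 10 Wistar rats. Fathers reached the laboratory on postnatal day 21, had 5 days of acclimation, were kept on a high-fat (HF) diet or on chow, and were mated between days 90 and 100 with chow-fed females. Litters were cut to at most 8 pups. The 5 paternal HF offspring and the 5 paternal chow offspring were treated alike: chow until day 35, then HF until tissue was taken on day 70, so the controls also ate HF. The labels do not say which litter or sire an offspring came from, nor its sex. Each value is the average methylation of a region in 1 animal, in percent; the read depth behind it is unknown. The tissue was bulk, so a shift in the share of a cell type and a shift in methylation within cells cannot be told apart. A table of methylation alone offers no expression of marker genes against which to check the tissue label.

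G protein-coupled receptors cross the membrane 7 times and, once a ligand binds, activate heterotrimeric G proteins, which raise or lower cyclic AMP through adenylyl cyclase or act through phospholipase C beta. In the arcuate nucleus they carry the effects of monoamines, opioids, somatostatin, glutamate and GABA onto neurons that govern feeding and pituitary hormone release. CpG-rich promoters are usually little methylated, whereas gene bodies and intergenic DNA are often more so.

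The promoter letters below, from RefSeq (build GRCr8), show the kind of CpG-rich sequence in which the receptor regions lie. Each runs from 250 bases before to 50 bases after the RefSeq start site, 5′ to 3′ on the strand of the gene. Capitals mark each CG inside the stretch where the table's distance to the start site would put the region. Adgrg6, an adhesion receptor required for myelination of peripheral nerve in mice and zebrafish, is shown because its region had the smallest p among the receptors. The other 4 lie, by that distance, wholly inside the window: the adrenergic receptors Adra1d and Adra2a, the dopamine receptor Drd2 and the sphingosine 1-phosphate receptor S1pr3. The build of the table is not given in the sources used here. Beyond the counts of CG given after the sequences, whether its start sites are those of RefSeq was not tested.
Adgrg6 (chr1:10773826-10774125, minus strand): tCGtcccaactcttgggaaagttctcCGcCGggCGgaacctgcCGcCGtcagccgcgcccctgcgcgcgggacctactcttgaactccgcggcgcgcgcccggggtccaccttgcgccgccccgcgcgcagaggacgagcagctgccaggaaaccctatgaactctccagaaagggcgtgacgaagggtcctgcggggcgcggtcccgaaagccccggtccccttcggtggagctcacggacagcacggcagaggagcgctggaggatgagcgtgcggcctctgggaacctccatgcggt
Adra1d (chr3:139262282-139262581, minus strand): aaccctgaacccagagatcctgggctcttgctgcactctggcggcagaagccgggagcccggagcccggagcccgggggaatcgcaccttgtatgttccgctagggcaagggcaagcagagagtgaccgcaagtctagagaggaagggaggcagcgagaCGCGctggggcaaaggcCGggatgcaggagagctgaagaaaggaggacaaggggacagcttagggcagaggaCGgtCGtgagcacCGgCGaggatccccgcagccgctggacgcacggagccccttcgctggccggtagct
Adra2a (chr1:263066530-263066829, plus strand): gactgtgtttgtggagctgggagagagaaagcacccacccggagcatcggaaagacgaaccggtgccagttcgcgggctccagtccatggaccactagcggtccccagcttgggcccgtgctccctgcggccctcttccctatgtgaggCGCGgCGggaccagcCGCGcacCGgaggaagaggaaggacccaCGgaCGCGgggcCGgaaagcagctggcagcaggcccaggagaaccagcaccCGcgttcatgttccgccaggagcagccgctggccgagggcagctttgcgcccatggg
Drd2 (chr8:58605153-58605452, plus strand): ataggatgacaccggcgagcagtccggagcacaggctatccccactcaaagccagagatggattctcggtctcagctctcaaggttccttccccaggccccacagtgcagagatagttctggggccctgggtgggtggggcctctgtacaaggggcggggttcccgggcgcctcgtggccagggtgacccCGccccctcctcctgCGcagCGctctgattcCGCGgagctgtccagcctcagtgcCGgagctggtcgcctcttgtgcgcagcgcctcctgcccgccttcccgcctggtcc
S1pr3 (chr17:13945964-13946263, minus strand): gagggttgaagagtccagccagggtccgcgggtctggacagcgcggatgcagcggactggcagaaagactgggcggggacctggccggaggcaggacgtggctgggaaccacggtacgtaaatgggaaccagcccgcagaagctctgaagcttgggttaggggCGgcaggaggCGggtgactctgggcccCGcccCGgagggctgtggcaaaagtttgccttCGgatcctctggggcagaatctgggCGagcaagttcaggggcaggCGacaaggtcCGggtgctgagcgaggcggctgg
The marked stretch of Adgrg6 held 6 CG in the window, against 13 CpG positions counted by the table for a region that begins 10 bases before it. The table's count must include both strands at 109 of its 8957 regions, none of them a receptor region. Whether the count covered 1 strand or both at the receptor regions is not known. Of 7 receptor regions wholly inside such a window, the letters held at least as many positions as the table at 4 when counted on both strands, which are those printed above, and at 1 (Adra2a) when counted on 1 strand. At Adora1 the letters held 0 CG against 10 positions in the table. At Gpr107 and Ptger3 they held 8 positions on both strands against 10. At these 3 the stretch placed by distance did not match the table's count. At the 4 printed, a large enough count does not show that the start sites agree.

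RefSeq promoter sequence was available for 35 of the 44 genes. These promoters held a median of 23 CG in 300 bases, against 7 over 27457 promoters of the same length, and the range was 2 (Adgra3, Adgrb2 and Gpr62) to 47 (Gabbr2). A GC box, GGGCGG or its reverse complement CCGCCC, was found in 20 of 35 (57.1%) against 34.9% of all promoters. The cyclic AMP response element TGACGTCA occurred in 1, that of Sstr2, which is 2.86% against 1.91%. Its partial form, TGACG or CGTCA, which the full element contains, occurred in 7 (20%) against 21.96%. These are matches of letters, not sites shown to bind a factor. Every region of the table held at least 10 CpG positions, and most receptor regions lay near a start site. A CG-rich promoter was thus favoured by the selection itself. Promoters of the other genes in the table were not compared, so these shares cannot be read as traits of receptor genes.

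Receptor regions were short and mostly near a start site. Their median length was 75 bases with a median of 10 CpG positions, against 66 bases and 11 positions over the whole table. The table placed 29 in a promoter (43.9%, against 38.3% of all regions), 18 in an exon, 10 in an intron, 7 between genes and 2 at a transcription termination site. Of the 66, 47 lay within 1000 bases of the named start site (71.2% against 66.4%). Methylation was low: the median level was 2.46% (2.27% over all regions), and 51 regions were at up to 5%. Regions far from a gene are tied to it by distance alone, such as that of Gpr132 at 85504 bases. The table sets the region named for Gpr50 on chromosome 17 although RefSeq has Gpr50 on X, so it may belong to another gene; the other 43 genes matched in chromosome.

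Most receptor regions had the higher mean in paternal HF offspring, in about the share seen across the table. The mean was higher at 48 of 66 (72.7%; 71.0% of all 8957 regions) and lower at 18. The median difference, paternal HF minus paternal chow, was 1.44 percentage points (1.41 over all regions), and single differences ran from -8.15 points in Grm4 to 12.01 points in Gpr153. The authors' own group means differed by at least 1 point, in either direction, at every region of the table. The size of these medians was thus partly set by the selection. No receptor region passed the test across animals. Limma, a linear model with shrunken variances fitted to all regions, gave 0 of 66 with an adjusted p below 0.05 (0% of all regions). Adjusted p ran from 0.235 to 0.548. At an unadjusted limma p below 0.05 there were 9 of 66 (13.6%), a smaller share than the 20.9% of the whole table; 8 were higher (12.1% against 16.4%) and 1 lower (1.52% against 4.52%). Groups did not overlap at 3 regions (4.55%; 5.15% of all regions), 2 higher (3.93% of all regions were separate in this direction) and 1 lower (1.22%).

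Other tests gave other counts. The exact permutation test per region left 0 receptor regions after adjustment, with 13 of 66 at an unadjusted p below 0.05 (19.7%; 24.9% of the 8838 regions with complete values). Its smallest possible p, 0.00794, came to an adjusted p of 0.154 in this test, so no region could pass. In the authors' deposited table every receptor region had a q of 1, so 0 of 66 were below 0.05 (0.848% of all regions). The table also carries p-values of the Mann-Whitney test and of the 2-dimensional Kolmogorov-Smirnov test. Adjusted over the table, the Mann-Whitney p was below 0.05 at 39 receptor regions (59.1%; 58.3% of all) and the Kolmogorov-Smirnov p at 16 (24.2%; 33.8% of all). The labels and headers do not say what these tests took as units; the deposited Mann-Whitney p of the Drd5 promoter, 0.000493, is smaller than the 0.00794 that 5 against 5 animals allow.

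**Figure D1:**
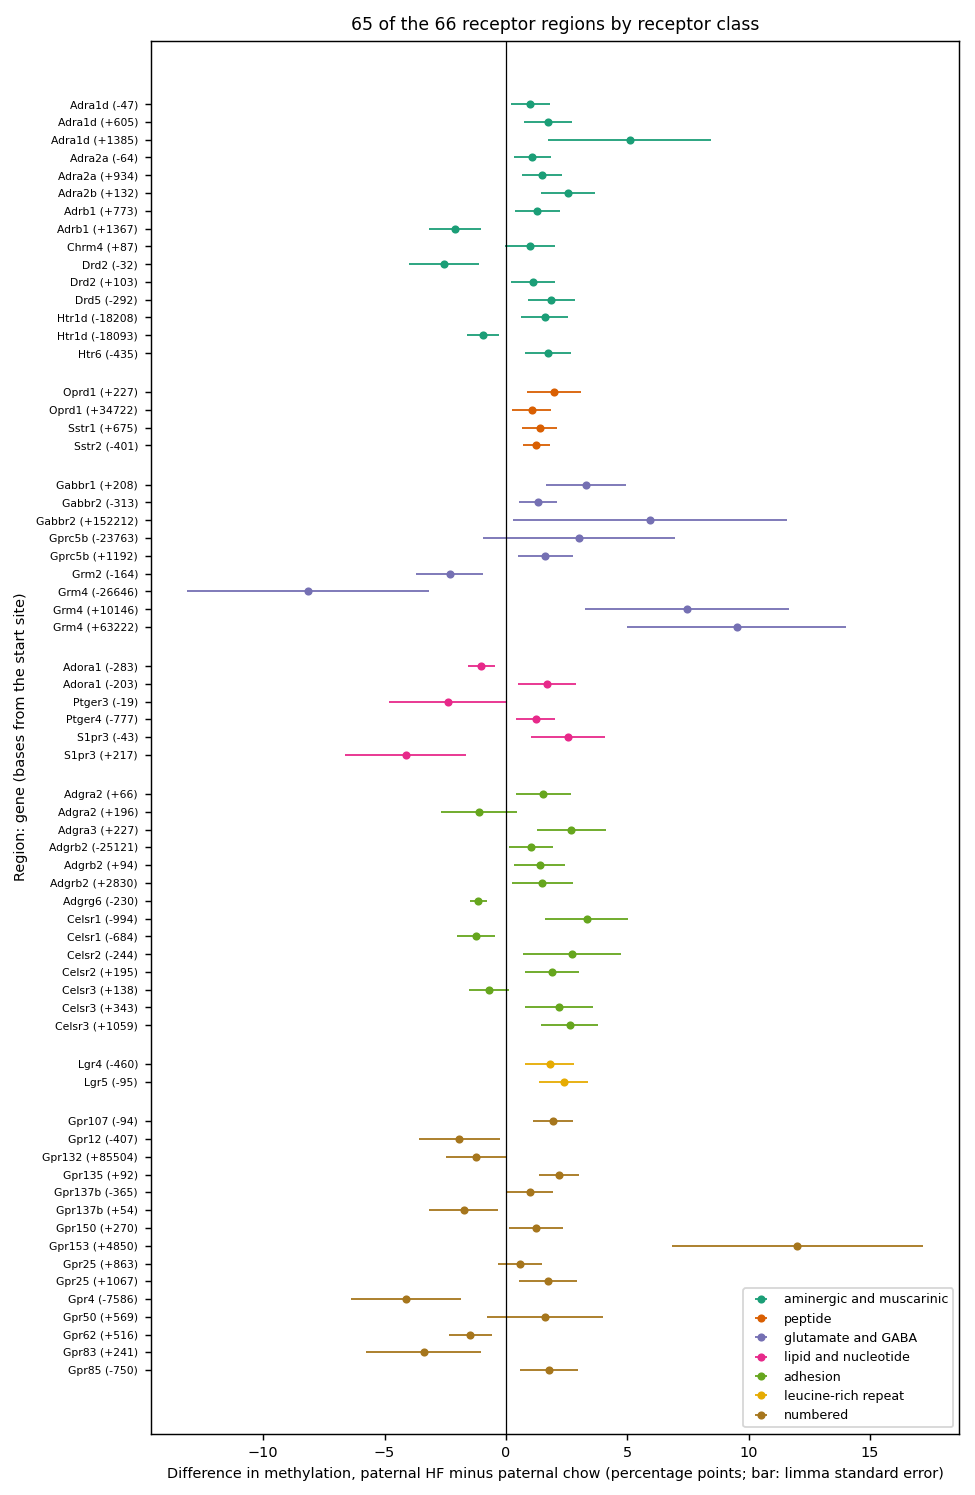
Difference in mean methylation (paternal HF minus paternal chow, percentage points, x axis) for 65 of the 66 receptor regions, grouped and coloured by receptor class; points are differences, bars limma standard errors, and the number after each gene is the distance to its start site in bases. Of the 65 points, 47 lie right of 0, and the widest bars belong to the 7 regions at higher methylation.

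Averaged over the 66 regions, the level per animal was 8.58% ± 0.737 (SD, n = 5) in paternal HF and 7.44% ± 0.538 (SD, n = 5) in paternal chow offspring. The paternal HF animals ran from 7.45% to 9.23% and the paternal chow animals from 6.68% to 8.19%, so the groups overlapped. Medians over the 66 regions were 2.41% to 3.79% against 1.70% to 2.18% and did not overlap. Nor did the means over all 8957 regions, at 6.48% to 8.24% against 5.72% to 6.46%, and their difference of 1.10 points was close to the 1.14 points of the receptor regions. Over the 59 receptor regions under 20% methylation the difference of the means was 0.684 points. Animals differed in how often they supplied the extremes. The paternal chow animal 4HFB was at 0 in 11 receptor regions and in 1821 regions of the table (203 to 1168 in the others); it was the highest of the 10 animals at 12 receptor regions and the lowest at 18. The paternal HF animals 22HFR, 26HFB and 24HFB were highest at 14, 13 and 12. Leaving out 1 animal moved the difference by more than 1.5 times at 46 of 66 regions, most often 4HFB (16 regions), 22HFR (12) and 26HFB (11). Neither these counts nor those of the highest and lowest animal are given here over all 8957 regions. They cannot be called particular to the receptors. Spread was the larger in paternal HF at 42 regions (5841 of 8957 over the table), with a median SD of 1.83 points against 1.19.

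**Figure D2:**
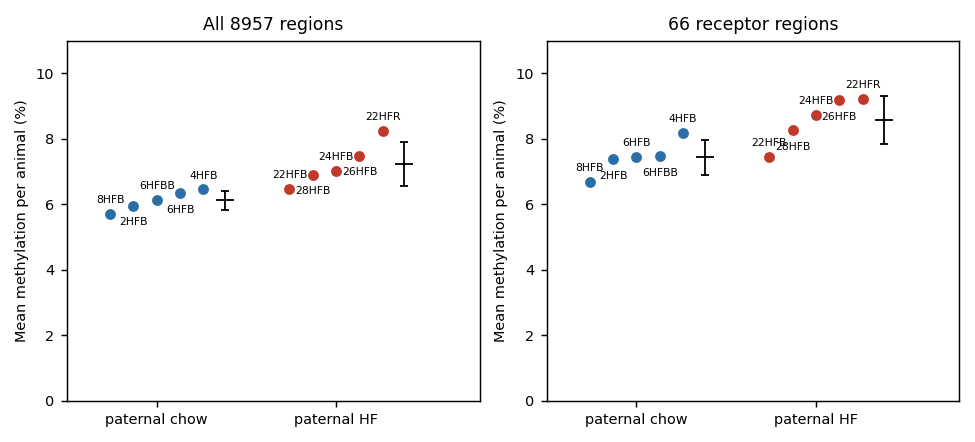
Mean methylation per animal (percent, y axis) over all 8957 regions (left) and over the 66 receptor regions (right); points are animals with their names, dashes and bars mean and SD of 5 animals. On the right the lowest paternal HF animal (22HFB, 7.45%) lies below the highest paternal chow animal (4HFB, 8.19%).

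Among adhesion receptors, large proteins that join a cell-adhesive extracellular part to a receptor core, 10 of 14 regions were higher and 4 lower, with a median difference of 1.52 points. The Adgrg6 promoter region (chromosome 1, 8751398 to 8751458, 230 bases before the start site) was the lone receptor region whose groups were separate with paternal HF below. Its level was 0% in 22HFB, 24HFB and 26HFB, 0.151% in 28HFB and 0.506% in 22HFR. Paternal chow animals had 0.648%, 0.926%, 1.18%, 1.37% and 2.19%. All levels lay near the bottom of the scale, and the gap between the groups was smaller than the range within the paternal chow group. The means were 0.131% ± 0.219 and 1.26% ± 0.585 (SD, n = 5 each). The difference was -1.13 points (SE 0.367; limma p = 0.00805 unadjusted, adjusted p = 0.235; exact permutation p = 0.00794, the smallest possible).

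Celsr3, an atypical cadherin needed for axon tracts in mice, had 3 regions in its exon 1 of 36. At that 1059 bases from the start site (chromosome 8, 117621291 to 117621461), which held 28 CpG positions, the paternal HF animals had 0.684%, 1.58%, 4.24%, 6.31% and 6.31%, and the paternal chow animals 0.538% to 2.06% with a median of 1.24%. The 3 highest animals were paternal HF, but the other 2 lay within the paternal chow range. The difference was 2.63 points (SE 1.17; limma p = 0.0407 unadjusted, adjusted p = 0.235; exact permutation p = 0.0873). The region at 343 bases differed by 2.19 points and that at 138 bases by -0.70 points, the latter turning to 0.0333 points without 6HFB. All 3 regions of Adgrb2, a brain angiogenesis inhibitor receptor, were higher, by 1.02 points 25121 bases before the start site, 1.38 points in the promoter and 1.51 points in intron 1 of 28. Groups overlapped at each, and without 1 animal the difference was as low as 0.443, 0.740 and 0.684 points.

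Receptors for monoamines and acetylcholine gave 15 regions at 9 genes, 12 higher and 3 lower, with a median difference of 1.30 points. Adra2b, an alpha-2 adrenergic receptor that lowers cyclic AMP, had a region in its single exon (chromosome 3, 119806026 to 119806119). Paternal HF animals had 2.42%, 2.44%, 3.32%, 3.33% and 8.04%, and paternal chow animals 0.164%, 1.11%, 1.28%, 1.82% and 2.41%. The groups did not overlap, although 2.42% and 2.41% all but meet, and 26HFB stood far above the rest. The difference was 2.55 points (SE 1.12; limma p = 0.0394 unadjusted, adjusted p = 0.235; exact permutation p = 0.00794) and 1.52 points without 26HFB.

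Adra1d, an alpha-1 receptor that acts through phospholipase C, had 3 regions along its first exon and promoter, all with the higher mean in paternal HF. The capitals printed above mark its promoter region only if the start sites agree, which the counts of CG do not show. In the promoter (chromosome 3, 124145568 to 124145657) the levels were 2.98% ± 0.933 and 1.97% ± 0.596 (SD, n = 5 each). At 605 bases they were 4.20% ± 1.55 and 2.47% ± 0.808, and at 1385 bases 27.5% ± 5.50 and 22.4% ± 4.68 (SD, n = 5 each). Methylation thus climbed along the gene within both groups, and the animals of the groups overlapped at each position; the difference at 1385 bases, 5.10 points, was 2.80 without 26HFB. Adrb1, the beta-1 receptor that raises cyclic AMP, was lower by 2.10 points at its termination site (1.36% ± 0.880 against 3.46% ± 2.15; SD, n = 5 each), where 4HFB alone had 7.23%. Without 4HFB the difference was -1.16 points. Its other region, in the exon, had a higher mean by 1.30 points, or 0.663 without 24HFB.

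Peptide receptors gave 4 regions at 3 genes, all with the higher mean in paternal HF, with a median difference of 1.33 points. The Sstr2 promoter region (chromosome 10, 102135827 to 102135936), at a somatostatin receptor that lowers cyclic AMP, had 0.826%, 1.09%, 2.18%, 2.61% and 2.62% in paternal HF animals. In paternal chow animals it had 0.182%, 0.312%, 0.526%, 0.653% and 1.40%. The 3 highest values were paternal HF, and the groups overlapped through 6HFBB at 1.40%. The difference was 1.25 points (SE 0.557; limma p = 0.0415 unadjusted, adjusted p = 0.235; exact permutation p = 0.0397). Sstr1, a second somatostatin receptor, had 1.98% ± 1.46 against 0.577% ± 0.751 (SD, n = 5 each) in exon 2 of 2, and 6HFB at 1.89% stood apart from the other paternal chow animals, which reached 0.392%; the difference of 1.40 points was 0.918 without 22HFR. The delta opioid receptor Oprd1, named here after its values were seen, had a higher mean by 1.98 points in exon 1 (1.04 without 24HFB) and by 1.06 points in exon 3 (0.570 without 22HFR).

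The leucine-rich repeat receptors Lgr4 and Lgr5, which bind R-spondins and strengthen Wnt signalling, had 1 promoter region each, both higher. At Lgr5 (chromosome 7, 58587837 to 58587927) paternal HF animals had 2.56%, 2.96%, 3.02%, 3.03% and 6.88%, and paternal chow animals 0.463%, 0.850%, 0.861%, 1.25% and 3.05%. A single paternal chow animal, 6HFBB, reached into the paternal HF range. The difference was 2.39 points (SE 1.01; limma p = 0.0327 unadjusted, adjusted p = 0.235; exact permutation p = 0.0397), and 1.60 points without 26HFB. Lgr4 had 3.32% ± 1.72 against 1.52% ± 1.24 (SD, n = 5 each), with overlapping groups.

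Among the 16 regions of 14 receptors known by a Gpr number, most of them without an established ligand, 10 were higher and 6 lower. The Gpr135 promoter region (chromosome 6, 94818197 to 94818317) was at 0% in 2HFB, 4HFB and 6HFBB, 0.395% in 8HFB and 0.649% in 6HFB. Paternal HF animals had 0.699%, 1.10%, 1.12%, 3.99% and 5.05%. The groups did not overlap, and 22HFB and 22HFR lay well above the other 3 paternal HF animals. Their column names share a leading number, and whether that marks related animals is not known. The difference was 2.18 points (SE 0.824; limma p = 0.0190 unadjusted, adjusted p = 0.235; exact permutation p = 0.00794). Also under an unadjusted p of 0.05, and named after its values were seen, was the Gpr107 promoter, with 3.05% ± 1.12 against 1.11% ± 0.905 (SD, n = 5 each) and overlapping groups.

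**Figure D3:**
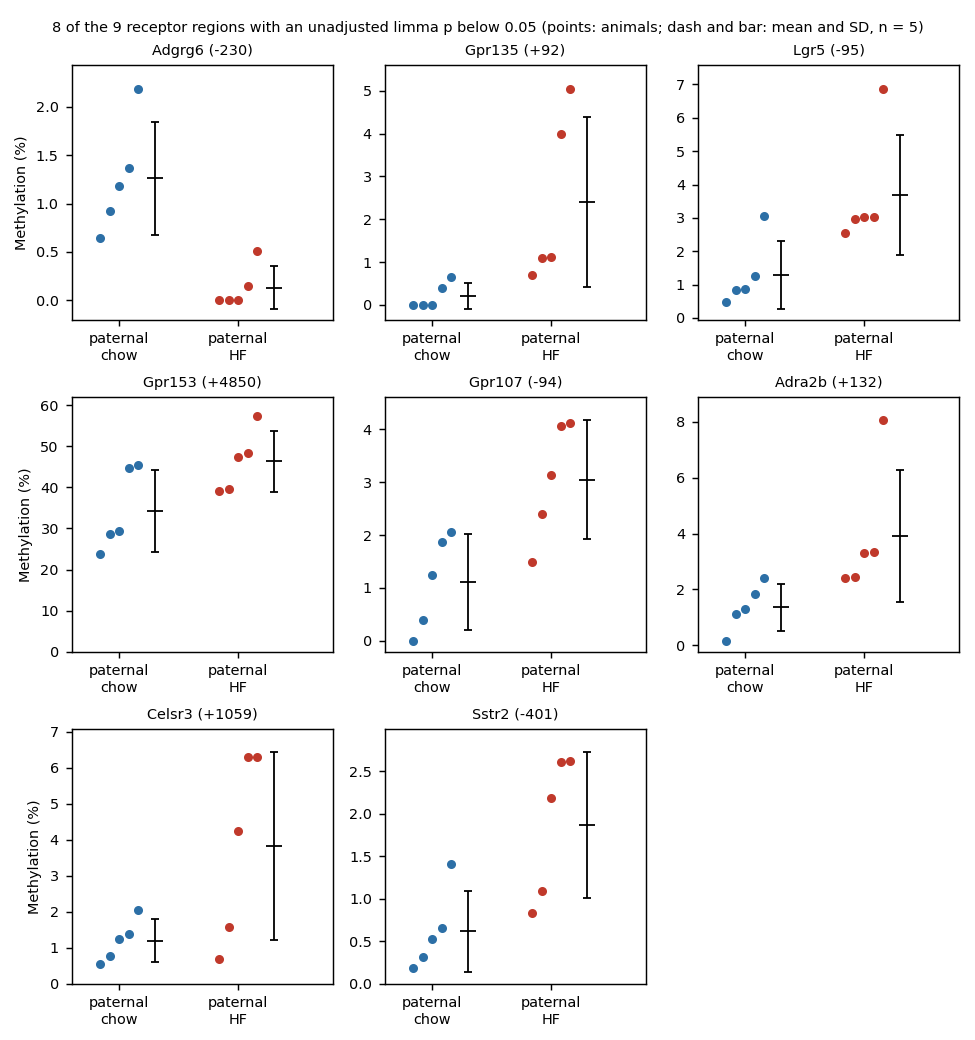
Methylation per animal (percent, y axis, scaled per panel) at 8 of the 9 receptor regions with an unadjusted limma p below 0.05; points are animals, dashes and bars mean and SD of 5 animals, and the number in each title is the distance to the start site in bases. Groups are separate at Adgrg6, Gpr135 and Adra2b and overlap in the other 5 panels.

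At the 7 regions with a mean level of 20% or more (10.6% of the receptor regions, 7.93% of all regions) the median absolute difference was 7.46 points. It was 1.69 points at the other 59. Of the 7, 6 were higher and 1 lower. Over the whole table the median was 5.29 points at 20% or more and 1.66 points under 20%. Of all regions at 20% or more, 75.8% were higher. None of the 7 receptor regions lay within 1000 bases of a start site, against 23.5% of all regions at that level. In exon 2 of 6 of Gpr153, a receptor without an established ligand (chromosome 5, 169457271 to 169457415), paternal HF animals had 39.2%, 39.6%, 47.4%, 48.2% and 57.2%. Paternal chow animals had 23.8%, 28.6%, 29.3%, 44.6% and 45.3%. The 3 lowest animals were paternal chow, while 4HFB and 6HFBB lay among the paternal HF values. The difference of 12.01 points (SE 5.16; limma p = 0.0356 unadjusted, adjusted p = 0.235; exact permutation p = 0.0794) ranged from 9.28 to 14.8 points when 1 animal was left out.

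Grm4, a presynaptic metabotropic glutamate receptor that lowers cyclic AMP, had 3 such regions on chromosome 20, in introns, with unlike directions. At 6709639 to 6709722, 63222 bases past the start site, paternal HF animals had 31.4%, 38.4%, 44.3%, 52.0% and 52.1% and paternal chow animals 27.8%, 31.8%, 34.4%, 38.2% and 38.5%. The 3 highest animals were paternal HF, and the difference was 9.51 points (SE 4.51; limma p = 0.0535 unadjusted, adjusted p = 0.235; exact permutation p = 0.0952). At 6762630 to 6762883 the difference was 7.46 points (55.8% ± 6.12 against 48.3% ± 6.34; SD, n = 5 each). At 6818128 to 6818202, 26646 bases before the start site, paternal HF animals had 37.5%, 42.1%, 44.3%, 51.5% and 56.5%, and paternal chow animals 47.0%, 48.4%, 49.0%, 61.6% and 66.6%. Here the 3 lowest animals were paternal HF, and the difference was -8.15 points (SE 4.98; limma p = 0.124 unadjusted, adjusted p = 0.246; exact permutation p = 0.159), or -5.12 without 6HFBB. The groups overlapped at all 3 regions. The table places the first and last of these in intron 2 of 4 of 1 and the same annotated transcript, which is not a transcript whose start it names for them; the table does not give that transcript's gene.

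The other glutamate and GABA receptor regions, grouped with the class C receptor Gprc5b, brought this class to 7 higher and 2 lower of 9, with a median difference of 3.01 points. Gabbr1 and Gabbr2 encode the paired subunits of the GABA-B receptor, which lowers cyclic AMP and opens potassium channels. The Gabbr1 promoter had 5.67%, 7.75%, 9.47%, 10.4% and 12.7% in paternal HF and 3.44%, 4.02%, 5.36%, 6.22% and 10.5% in paternal chow animals. Without 2HFB, at 10.5%, paternal chow stayed at or under 6.22%, which still overlapped the lowest paternal HF animal. The difference over all animals was 3.30 points (SE 1.67, limma p = 0.0678 unadjusted, adjusted p = 0.235, exact permutation p = 0.103). It ranged from 2.42 to 4.44 points when 1 animal was left out. Gabbr2, named here after its values were seen, differed by 1.32 points in the promoter at a level of a few percent. In its intron 3, at 70.1% ± 10.7 against 64.1% ± 10.8 (SD, n = 5 each), the difference of 5.95 points was about the size of its SE, 5.65, and was 2.06 without 22HFB and 1.96 without 6HFBB.

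**Figure D4:**
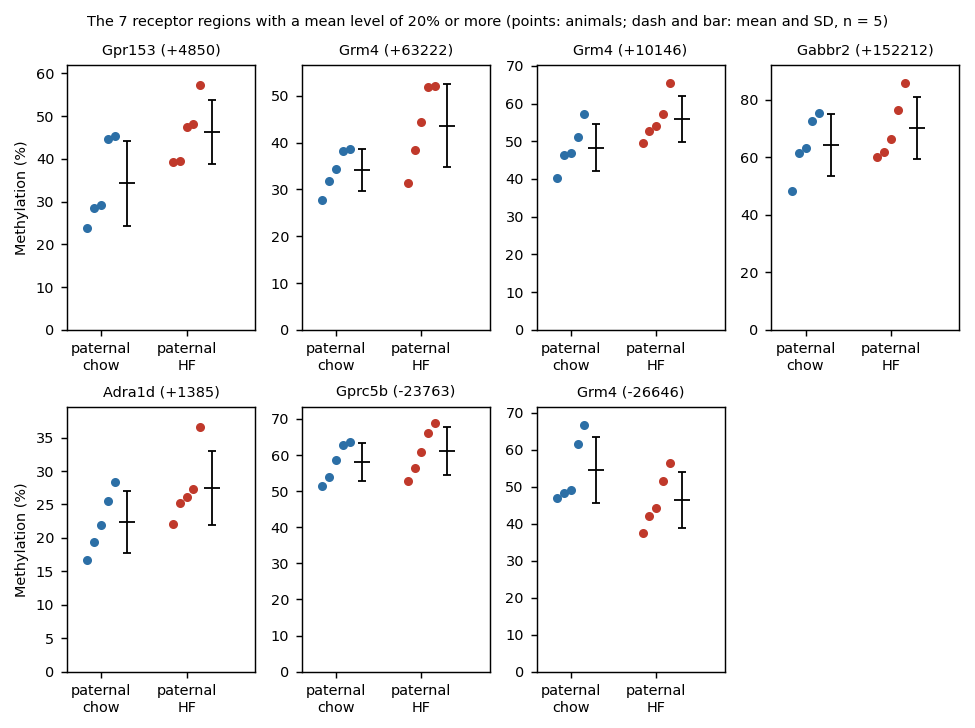
Methylation per animal (percent, y axis from 0, scaled per panel) at the 7 receptor regions with a mean level of 20% or more; points are animals, dashes and bars mean and SD of 5 animals, and the number in each title is the distance to the start site in bases. Groups overlap in every panel; the means of paternal HF are higher in 6 panels and lower at Grm4 26646 bases before its start site.

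Receptors for lipids and nucleosides had no common direction: 3 of 6 regions were higher and 3 lower, with a median difference of 0.107 points. The promoter of Adora1, the adenosine A1 receptor that lowers cyclic AMP, held both directions within a short stretch of chromosome 13. At 51076427 to 51076469 paternal HF animals had 0.397%, 0.926%, 0.949%, 0.970% and 1.27%, and paternal chow animals 1.13%, 1.52%, 2.17%, 2.24% and 2.49%. The groups overlapped by 1 animal each, 24HFB and 2HFB, and the difference was -1.01 points (SE 0.545; limma p = 0.0856 unadjusted, adjusted p = 0.235; exact permutation p = 0.0159). At 51076321 to 51076414, 13 bases away, the difference was 1.69 points, or 0.718 without 22HFR.

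S1pr3 did likewise across its start. In the promoter, marked by the capitals above only if the start sites agree, paternal HF animals had 4.001%, 4.86%, 6.89%, 8.95% and 11.3%. Paternal chow animals had 1.39%, 4.25%, 5.29%, 5.54% and 6.69%. The difference was 2.57 points (SE 1.53), or 1.54 without 22HFR. The intron 1 region 64 bases on had 5.67% ± 3.46 against 9.80% ± 5.67 (SD, n = 5 each), a difference of -4.13 points (SE 2.48) and of -2.29 without 4HFB. Groups overlapped at both. The dopamine receptor Drd2, named here after its values were seen, had -2.56 points in the promoter region. It had 1.13 points (0.709 without 24HFB) in intron 1, 278 bases on. At that promoter 4HFB had 9.43% while the other 9 animals were between 0% and 3.33%, and without 4HFB the difference was -1.03 points.

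Opposite directions in neighbouring regions occurred both among the receptors and over the whole table. Of 18 receptor genes with at least 2 regions, 10 had both directions (55.6%; 52.2% of 1987 genes over the table), 8 were higher throughout and 0 lower throughout. Of 15 pairs of adjacent regions under 1000 bases apart, 9 had opposite directions (60%; 42.3% of 2500 such pairs over the table). These were at Adora1, Htr1d, S1pr3, Adgra2, Celsr1, Celsr3, Drd2, Gpr137b and Adrb1, listed by gaps of 13 to 546 bases. The 6 pairs with 1 direction, at Gpr25, Celsr2, Celsr3, Adra2a and, for 2 of the pairs, Adra1d, had gaps of 22 to 919 bases. Each count is a description of regions that no limma call supports singly, and leaving out 1 animal changes the sign of 1 member of a pair at Adgra2 and Celsr3, counted as opposite, and at Gpr25, counted as alike.

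**Figure D5:**
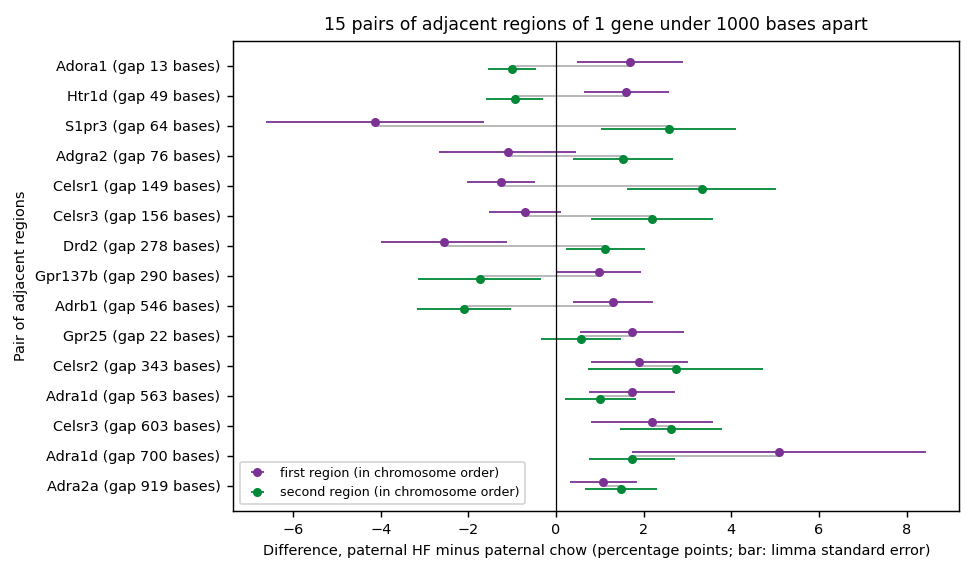
Difference in mean methylation (paternal HF minus paternal chow, percentage points, x axis) in the 15 pairs of adjacent regions of 1 gene that lie under 1000 bases apart; purple and green points are the regions of a pair in chromosome order, bars are limma standard errors, and the gap is given in bases. In the upper 9 pairs the points lie on either side of 0, and in the lower 6 both lie above 0.

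Genes that act downstream of the receptors were taken from 7 lists and gave 68 regions at 40 genes. The mean was higher in paternal HF at 45 (66.2%; 71.0% of all regions) and lower at 23. With limma 0 passed after adjustment, and 13 had an unadjusted p below 0.05 (19.1%; 20.9% of all regions). By list, higher and lower regions numbered 13 and 8 for G protein subunits, 5 and 1 for regulators of G protein signalling, 10 and 3 for adenylyl cyclases, and 0 and 2 for phospholipase C beta. They were 5 and 1 for receptor kinases and arrestins, 4 and 0 for protein kinase A subunits, and 8 and 8 for cyclic nucleotide phosphodiesterases. The authors' deposited q was below 0.05 at 1 of the adenylyl cyclase regions and at none of the others, which is 1.47% of the 68 against 0.848% of all regions.

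The region with the smallest p of each list stood in these genes. Adcy9, an adenylyl cyclase, had 4.22% ± 1.96 against 1.45% ± 0.461 (SD, n = 5 each) in exon 2 of 11, with every paternal HF animal at 2.12% or more and every paternal chow animal at 2.11% or less. The adenylyl cyclase region with a deposited q below 0.05 was a different one. A region 155639 bases before Plcb4, a phospholipase C beta, had 0.149% ± 0.168 against 1.49% ± 0.567 (SD, n = 5 each), again without overlap; at that distance the tie to the gene is nominal. Gnai1, an inhibitory G protein subunit, had 2.45% ± 0.282 against 0.876% ± 0.890 (SD, n = 5 each), and Prkar2b, a regulatory subunit of protein kinase A, 4.25% ± 2.54 against 1.30% ± 0.763. Pde10a, which degrades cyclic nucleotides, had 2.79% ± 1.38 against 0.840% ± 0.765 (SD, n = 5 each). Arrb2, an arrestin that ends receptor signalling, differed by 2.06 points (SE 1.03), and Rgs22, a regulator of G protein signalling, by 1.75 points (SE 0.879). The limma adjusted p was 0.235 for all 7.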

How the data were processed

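A single deposited table of regions was used. The submitters' processing notes name Trim Galore, Bismark and Bowtie, and per the file headers the regions were called by metilene between the paternal diets. Neither labels nor headers state versions, genome build, coverage filter, conversion rate, metilene settings or whether starts count from 0 or 1. The authors deposited each animal's methylation as a fraction averaged over a region, without reads per site. They also deposited a signed difference of the group fractions, a score not used further here, and q-values and p-values as metilene wrote them. A count of CpG positions per region, at least 10, came from the authors; it must include both strands at 109 of 8957 regions, which hold more positions than 1 strand could, and at the receptor regions, none of which are among these, the strand is undetermined. Depth is unknown, so no counting interval is given.

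The animal columns carry a group but no replicate number, and were taken as 5 per group; p-values cover the spread between these animals, among which littermates may be present. Fractions were turned into percent and fitted over all 8957 regions with limma 3.58.1 (R 4.3.3, mean-variance trend, two-sided, Benjamini-Hochberg adjustment at 0.05). The fit was tried on simulated normal values that could fall below 0%, so that trial does not speak for levels near 0%. The exact permutation test took all 252 arrangements of 5 against 5 animals and is two-sided and unadjusted where a single region is described. Promoters were matched by symbol to RefSeq tables (GRCr8). Python 3.11.15, pandas 2.3.3, SciPy 1.17.1 and matplotlib 3.10.9 were used.

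Members and lists were chosen with earlier results of these data known. A receptor region was named if it passed limma or a deposited q below 0.05, had groups that do not overlap, was among the 2 of its class with the smallest p, or belonged to a gene with 3 regions; of each downstream list the region with the smallest p was named. Alternatives were another scale (logit, offset 0.01), other variance priors, tests, thresholds and filters, and leaving out animals. Chosen after seeing the data were leaving out 4HFB with 22HFR, leaving out the region named for Gpr50, and keeping regions under 20%. The values of 1 receptor region that is in the counts are not reported here.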

Additional observations from a re-analysis of the deposited data

Results flagged for a closer look

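In 13 of 140 groups of 5 animals, taken over the receptor regions and 4 levels per animal, 1 animal lay so far from the other 4 that its gap, as a share of the group's range, exceeded Dixon's critical value. Chance flags about 1 in 20 groups if the values are independent and normally distributed. Many levels here lie near 0%, below which none can fall, so 13 of 140 cannot be judged against that rate. The paternal HF animal 26HFB was the high one at Adra2b (8.04%), the Celsr2 promoter (13.1%), the Gpr25 exon region (5.39%), Gpr85 (8.07%) and Lgr5 (6.88%). The paternal chow animal 4HFB was the high one at the Adrb1 termination site (7.23%), Gpr132 (7.72%), Grm2 (10.1%) and Ptger3 (15.7%), and the low one at the region before Adgrb2 (0%). Single flags fell on 6HFBB at Adgra3 (3.43%), 2HFB at Celsr3 343 bases from the start (6.77%) and 6HFB at Sstr1 (1.89%). The cause was not tested.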

How the results depend on the processing

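No other scale, variance prior, filter, threshold of 0.1 or left-out animal made a receptor region pass limma. None passed the exact permutation test after adjustment, but there no region could. Directions were the same at all 66 regions on the logit scale. They were also the same with columns of 1 leading number merged, 22HFB with 22HFR and 6HFBB with 6HFB. A variance prior or permutation cannot change directions. Calls numbered 39 with the deposited Mann-Whitney p adjusted over the table and 16 with the Kolmogorov-Smirnov p. The share of regions without overlap was 0% with at least 15 CpG positions and 0% with a mean level of at least 5%. As 15 regions each were left, 0% cannot be told from the 5.15% of the unfiltered table. With a mean level of at least 5% the mean difference was 2.14 points. Leaving out each animal, the share higher ran from 71.2% to 77.3%, the share without overlap from 4.55% to 9.09% and the mean difference from 0.950 to 1.42 points. Leaving out an animal can only keep or add regions without overlap. The shares over all regions in these settings are not given here. Directions reversed in 5 regions, with ranges of -0.389 to 0.959 points at the Gpr25 exon region (without 26HFB), -1.88 to 0.503 at Adgra2 exon 1, -3.17 to 0.612 at Ptger3, -1.72 to 0.105 at Gpr132 (these 3 without 4HFB) and -1.10 to 0.0333 at Celsr3 138 bases from the start (without 6HFB). Without 4HFB and 22HFR together, Adgra2 exon 1 was at 0.184 points. Without the region named for Gpr50, 72.3% were higher. The cause of these changes was not tested. No paired analysis was possible because the columns carry no replicate number that the sample titles share. Unknown depth limits every level, most of all the many near 0%.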
